A study of Mus musculus with 8 samples.

Results

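The genes described here are 40 genes of S phase and mitosis, listed by symbol, out of 36333 genes in a table of RNA levels from mouse ventral prostate. Of the 40 genes, 24 act in mitosis and 16 in S phase. Ventral prostate lobes were taken from 4 hSKP2-KI and 4 WT mice, all FVB/N and 12 months old, and each mouse gave 1 RNA-seq library. In hSKP2-KI mice, the human SKP2 coding sequence joined to a P2A peptide sits in exon 1 of the mouse probasin gene (Pbsn), so it is under the control of the probasin promoter, which is active in prostate epithelium. WT mice carry no insert. The sources used here do not say from which founder line the sequenced hSKP2-KI mice came. Levels are in TPM, reads divided by transcript length with every library scaled to a total of 1000000.

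SKP2 is the F-box protein of an SCF ubiquitin ligase that marks the cyclin-dependent kinase inhibitor p27 (Cdkn1b) for degradation, which favours entry into S phase. S phase genes are switched on by E2F factors once the retinoblastoma family is inactivated, and they license origins, unwind DNA and supply deoxynucleotides. Mitotic genes peak later, in G2 and M, through the DREAM and MMB-FOXM1 complexes, which act at the cell cycle genes homology region (CHR) together with CCAAT boxes bound by NF-Y. In an adult prostate few epithelial cells divide at any time, and such transcripts are scarce.

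The labels were checked first. Mouse Skp2 was listed at 37.3 to 60.6 TPM in the 4 hSKP2-KI libraries and at 1.05 to 2.27 TPM in the 4 WT libraries. Pbsn, whose first exon carries the insert, was at 93.0 to 174 TPM and 3980 to 9230 TPM, respectively. Per the paper, reads were mapped to the mouse genome. Whether the Skp2 row of hSKP2-KI holds reads of the human insert or of the mouse gene cannot be told apart in TPM and was not tested. The luminal epithelial markers Krt8, Krt18, Epcam, Cdh1 and Cd24a summed to between 1630 and 2240 TPM, so epithelial RNA was present in all 8 libraries. These markers do not tell which epithelium it was. The 3 secretory genes Sbp, Sbpl and Spink1 took 40.4% to 45.8% of all TPM in WT and 32.1% to 34.3% in hSKP2-KI. Since every library is scaled to the same total, a smaller share of these 3 genes goes with a larger share of the other genes together. Over the 13080 tested genes the median log2 fold change was 0.23. In TPM, less RNA of the 3 genes and more RNA of the other genes cannot be told apart, and the cause was not tested. Each result is therefore given for the TPM as deposited and after median-ratio scaling, in which each library is divided by its median ratio to the geometric mean of the genes. After that scaling the median over all tested genes was -0.02.

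Promoter windows of 300 bases, from 250 before to 50 after the transcription start, were available from RefSeq (build GRCm38.p6) for 32 of the 40 genes. They were searched on both strands for the CHR (TTTGAA or TTCGAA), the CCAAT box (CCAAT) and E2F sites (TTTCCCGC, TTTGGCGC, TTTCGCGC or TTTGCCGC). Of 19 mitotic genes with a window, 15 (78.9%) held a CHR and all of those 15 also held a CCAAT box. Among the promoters of 10376 tested genes, 16.0% held a CHR and 7.62% held both, and over all 32851 windows the shares were 19.2% and 7.52%. Of 13 S phase genes, 7 (53.8%) held an E2F site, against 1 of 19 mitotic genes, which was Cdk1, and 4.48% of the tested genes. The promoters of the mitotic and the S phase genes therefore differed in the letters they held. CCAAT boxes were the common element, in 18 of 19 mitotic and 9 of 13 S phase windows, against 42.1% of tested genes. A match of letters is a description of the window and does not show that a factor was bound.

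The windows of 6 genes on which the results turn are shown 5′ to 3′, with matches in capitals. Kif23, Cenpa and Mki67 are mitotic genes that carry both the CHR and CCAAT boxes. Mcm3 and Mcm6 are subunits of a single helicase and each carry E2F sites and CCAAT boxes. Pcna, the most abundant of the 40 genes, carries a CCAAT box and none of the other letters searched.
Kif23, chr9:61946750-61947049, minus strand: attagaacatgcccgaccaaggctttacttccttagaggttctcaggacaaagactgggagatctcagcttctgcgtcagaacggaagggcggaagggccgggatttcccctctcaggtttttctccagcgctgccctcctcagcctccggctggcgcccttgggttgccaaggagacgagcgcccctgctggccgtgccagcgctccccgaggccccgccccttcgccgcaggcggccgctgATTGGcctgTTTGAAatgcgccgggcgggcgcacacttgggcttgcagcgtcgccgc
Cenpa, chr5:30666636-30666935, plus strand: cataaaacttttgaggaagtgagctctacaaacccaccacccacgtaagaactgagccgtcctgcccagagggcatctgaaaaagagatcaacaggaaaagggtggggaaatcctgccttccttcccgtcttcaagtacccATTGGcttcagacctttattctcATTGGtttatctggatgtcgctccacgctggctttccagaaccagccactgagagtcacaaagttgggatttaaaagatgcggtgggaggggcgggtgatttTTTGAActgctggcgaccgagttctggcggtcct
Mki67, chr7:135716330-135716629, minus strand: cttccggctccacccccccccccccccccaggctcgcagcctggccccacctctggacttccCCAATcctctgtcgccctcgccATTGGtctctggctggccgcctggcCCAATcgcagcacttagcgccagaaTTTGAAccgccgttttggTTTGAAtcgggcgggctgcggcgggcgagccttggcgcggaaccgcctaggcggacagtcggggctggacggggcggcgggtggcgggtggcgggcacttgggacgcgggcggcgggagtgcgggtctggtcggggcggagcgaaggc
Mcm3, chr1:20820263-20820562, minus strand: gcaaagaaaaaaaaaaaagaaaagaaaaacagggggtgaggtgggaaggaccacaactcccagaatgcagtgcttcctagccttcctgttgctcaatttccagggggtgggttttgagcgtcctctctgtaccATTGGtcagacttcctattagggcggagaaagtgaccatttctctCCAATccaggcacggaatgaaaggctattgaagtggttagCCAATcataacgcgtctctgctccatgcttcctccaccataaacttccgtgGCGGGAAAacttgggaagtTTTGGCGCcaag
Mcm6, chr1:128359656-128359955, minus strand: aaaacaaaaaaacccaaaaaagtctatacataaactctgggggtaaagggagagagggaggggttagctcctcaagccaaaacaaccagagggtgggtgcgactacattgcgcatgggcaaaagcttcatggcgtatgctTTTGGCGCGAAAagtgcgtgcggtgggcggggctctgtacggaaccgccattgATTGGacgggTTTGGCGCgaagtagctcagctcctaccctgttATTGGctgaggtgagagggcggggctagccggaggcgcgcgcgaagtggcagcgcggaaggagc
Pcna, chr2:132253131-132253430, minus strand: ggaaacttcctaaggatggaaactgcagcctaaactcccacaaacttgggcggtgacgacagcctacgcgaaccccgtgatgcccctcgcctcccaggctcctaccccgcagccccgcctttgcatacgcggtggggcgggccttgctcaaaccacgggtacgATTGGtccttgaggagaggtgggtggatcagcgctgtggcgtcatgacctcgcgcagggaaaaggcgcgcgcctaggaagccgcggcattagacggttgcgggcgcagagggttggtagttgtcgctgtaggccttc
In the Kif23 window the CCAAT box, read on the other strand as ATTGG, begins at position -7 and the CHR at position 3, where 1 is the first transcribed base. In Cenpa the CHR begins at position 17, downstream of CCAAT boxes at -109 and -86. The Mki67 window holds 2 CHR matches, at -116 and -98, and 3 CCAAT boxes further upstream. The E2F sites of Mcm3 begin at 20 and 39 and those of Mcm6 at -110, -106 and -47, and the first 2 of Mcm6 overlap each other.

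The question was whether transcripts of dividing cells differed between hSKP2-KI and WT prostates. As a group they were scarce in both. The median level over the 40 genes was 1.16 TPM, against 12.6 TPM over the tested genes. The tested genes had passed a filter on low values that 18 of the 40 genes did not pass. These medians are therefore not of like sets, and the filter accounts for an unknown part of the gap. The mean of 8 libraries lay under 1 TPM for 18 of the 40 genes and above 5 TPM for 8, and 14 genes did not reach 1 TPM in any library. No gene of the list was at 0 TPM in any library. Of the 40 genes, 22 reached 1 TPM in at least 4 libraries and were tested, 14 of 16 in S phase and 8 of 24 in mitosis. A gene that passed this filter through 1 genotype alone had to differ between the genotypes. That did not hold for any of the 22 genes, although Cenpa came near it, with 3 hSKP2-KI libraries and 1 WT library at 1 TPM or more. The files hold no read numbers, the depth of these libraries is not known from them, and at such levels a difference can rest on few reads. In bulk tissue, fewer dividing cells and less RNA per cell cannot be told apart.

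**Figure D1:**
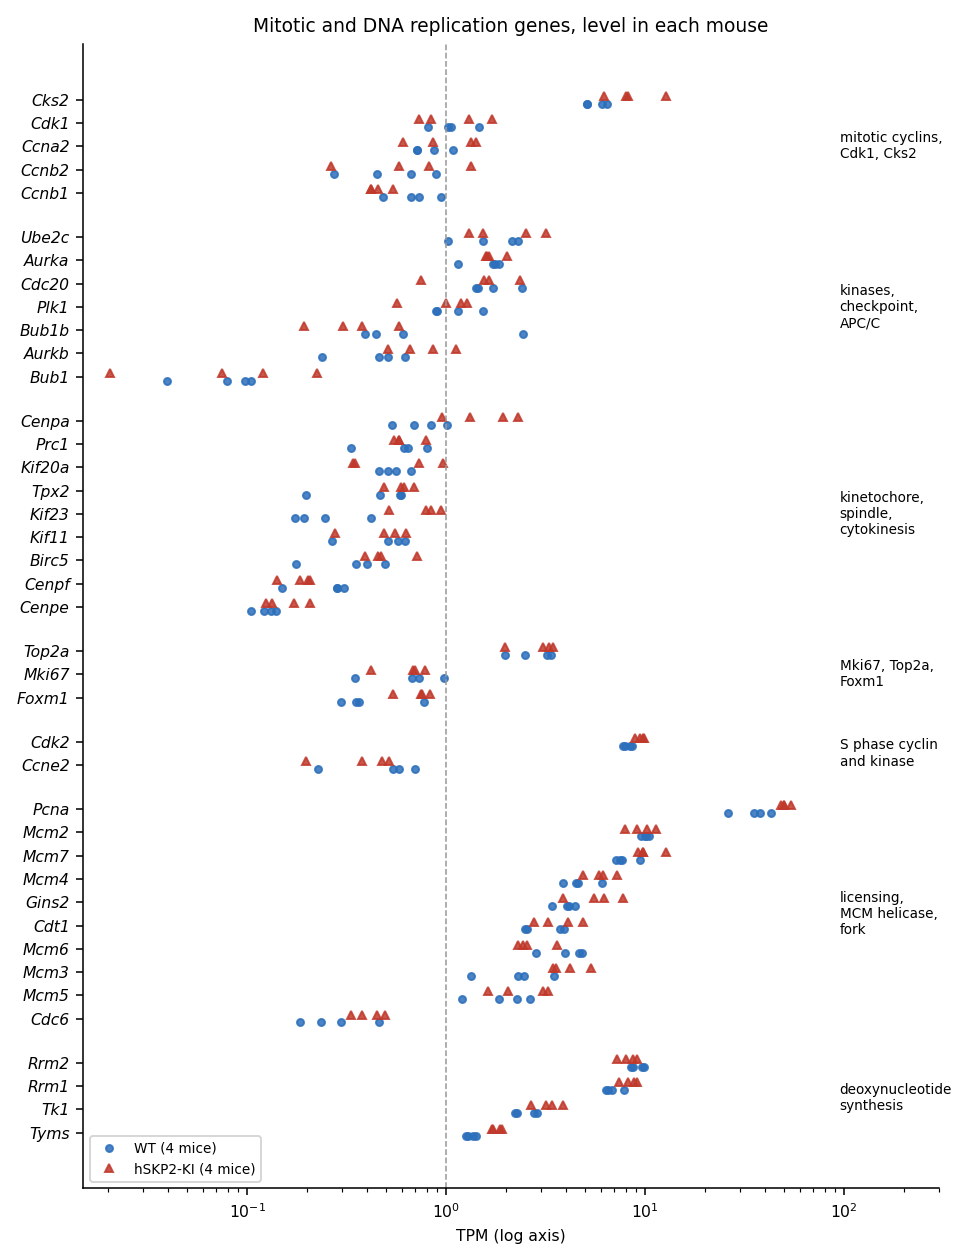
TPM of each of the 40 genes (log axis) in the 4 WT (circles) and 4 hSKP2-KI (triangles) libraries, grouped by role, with a dashed line at 1 TPM. Most mitotic genes lie left of the line in both genotypes and most S phase genes lie right of it.

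In the TPM as deposited, 4 of the 22 tested genes rose in hSKP2-KI (limma, Benjamini-Hochberg adjusted p under 0.05) and 0 fell. They were Mcm3, Cenpa, Pcna and Cks2. Of all 13080 tested genes, 32.7% rose and 1.23% fell, so the count among the 22 genes was no higher than that of genes at large. Their median log2 fold change was 0.21, against 0.23 over all tested genes, and 10 of the 22 lay above that median. After median-ratio scaling 0 of the 22 rose and 1, Mcm6, fell, where 6.64% of all tested genes rose and 4.76% fell. Before adjustment, 4 of the 22 genes had a p under 0.05 after scaling and 10 as deposited. The median of the 22 genes after scaling was -0.01. Quantile normalization gave the same counts, 0 and 1, beside 5.42% and 4.65% of all tested genes, and so did TPM rescaled without the 20 most abundant genes, beside 6.79% and 3.35%.

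**Figure D2:**
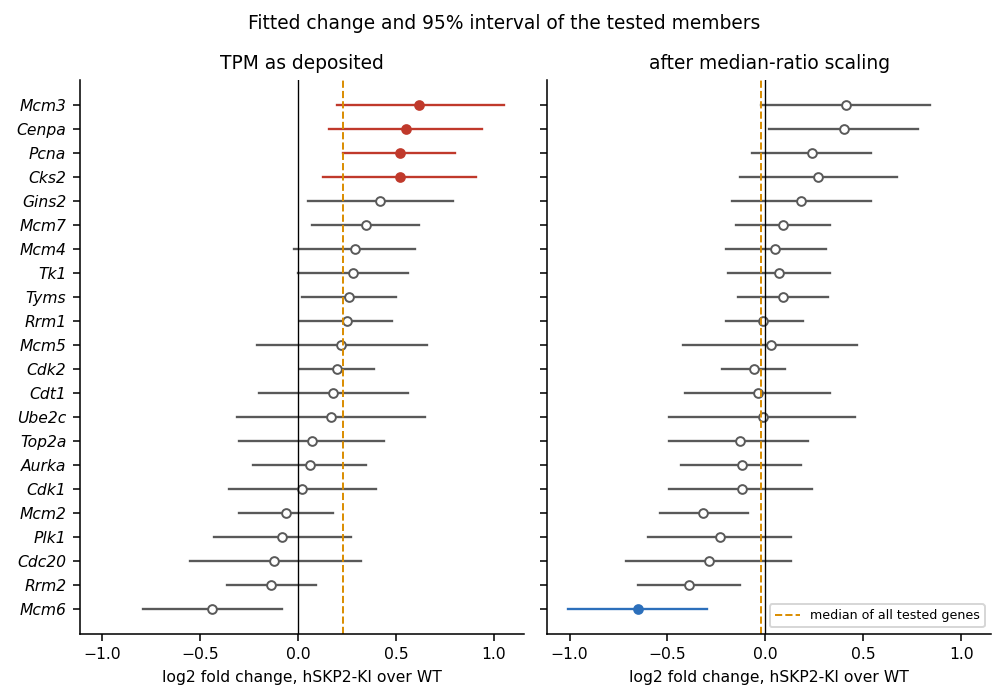
Log2 fold change (hSKP2-KI over WT, on log2(TPM + 1)) of the 22 tested genes with its 95% interval from limma, for the TPM as deposited (left) and after median-ratio scaling (right). Filled points passed an adjusted p under 0.05: 4 genes above 0 on the left and Mcm6 below 0 on the right. Dashed lines mark the median of all tested genes, 0.23 and -0.02.

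The mitotic set comprised 24 genes, of which 2 of the 8 tested rose as deposited, beside 32.7% of all tested genes. The median log2 change of the 8 was 0.07, beside 0.23 over all tested genes. After scaling 0 of the 8 rose or fell, beside 6.64% and 4.76% of all tested genes. Their median was then -0.12, beside -0.02. Mki67 encodes Ki-67, the coat protein of mitotic chromosomes that is widely used to mark proliferating cells. It was at 0.697, 0.684, 0.782 and 0.419 TPM in hSKP2-KI 1 to 4 and at 0.677, 0.972, 0.731 and 0.35 TPM in WT 1 to 4. The groups overlapped over nearly their whole range, and the highest library was WT 2. The difference in mean log2(TPM + 1) was -0.02, and with no filter on low values its adjusted p was 0.909 (limma). With a pseudocount of 0.1, which shrinks low values less, the log2 fold change was -0.03 with a 95% interval from -0.77 to 0.71. Changes of Mki67 within that interval, in either direction, were not excluded by these libraries.

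The 3 mitotic cyclins were below the filter, and with no filter 0 were called. Cyclin B1 (Ccnb1), which activates Cdk1 at mitotic entry, was at 0.539, 0.421, 0.457 and 0.417 TPM in hSKP2-KI and at 0.729, 0.943, 0.668 and 0.484 TPM in WT. It was the mitotic cyclin with the lower values in hSKP2-KI, where 3 of 4 libraries lay below every WT library. After scaling the groups did not overlap, with 0.365 to 0.504 in hSKP2-KI and 0.514 to 0.956 in WT, as was so in this direction for 6.27% of all genes with no filter. Its adjusted p with no filter was 0.123 (limma) as deposited and 0.0849 after scaling. Cyclin B2 (Ccnb2) spanned 0.264 to 1.33 TPM in hSKP2-KI and 0.274 to 0.885 TPM in WT. Cyclin A2 (Ccna2), which acts in both S phase and G2, spanned 0.61 to 1.42 TPM and 0.716 to 1.08 TPM. Both overlapped between genotypes, and 12.5% of the Ccna2 exon bases are shared with Exosc9 on the opposite strand. Cdk1, the kinase that drives mitosis, reached 1.15 ± 0.449 TPM (SD, n = 4) in hSKP2-KI and 1.09 ± 0.271 TPM in WT (log2 fold change 0.02, standard error 0.17, adjusted p = 0.92, limma). Cks2, the small subunit that docks Cdk1 to phosphorylated substrates, was at 12.8, 8.0, 8.22 and 6.21 TPM in hSKP2-KI and at 5.11, 6.42, 5.08 and 6.09 TPM in WT. The groups overlapped, since hSKP2-KI 4 was below WT 2. Its log2 fold change was 0.52 (standard error 0.18, adjusted p = 0.0429, limma) as deposited and 0.27 (adjusted p = 0.357) after scaling. With no filter the call as deposited was lost (adjusted p = 0.099).

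Among the mitotic kinases and regulators, 4 of 7 genes were tested and 0 were called. Aurora A (Aurka), a centrosomal kinase, was at 1.59 to 2.02 TPM in hSKP2-KI and 1.15 to 1.84 TPM in WT. Plk1, which acts from mitotic entry to cytokinesis, was at 0.564 to 1.27 TPM and 0.893 to 1.53 TPM. Cdc20, the activator of the anaphase-promoting complex (APC/C), was at 0.749 to 2.35 TPM and 1.42 to 2.4 TPM. All of these ranges overlapped, and the fitted changes lay between -0.12 and 0.06. Ube2c, the ubiquitin-conjugating enzyme of the APC/C, was at 1.53, 2.51, 1.31 and 3.19 TPM in hSKP2-KI and at 1.54, 2.15, 2.31 and 1.02 TPM in WT. Of its exon bases, 22.8% are shared with Tnnc2, a muscle troponin gene on the opposite strand, and whether the counting used strand is not stated. The skeletal muscle gene Tnnt3 was at 26.5 TPM in hSKP2-KI 4, where Ube2c was highest, at 12.0 TPM in WT 2 and under 1 TPM in the other 6 libraries, which include hSKP2-KI 2 and WT 3 with Ube2c above that of WT 2. The part of muscle in the Ube2c values was not tested. Bub1b, the checkpoint kinase BubR1, was at 0.194, 0.582, 0.376 and 0.303 TPM in hSKP2-KI and at 0.39, 0.445, 0.607 and 2.44 TPM in WT. WT 4 stood far above the other 7 libraries for that gene, while it was the lowest WT library for 13 of the 24 mitotic genes. Bub1, its partner at the kinetochore, was the scarcest of the 40 genes, at 0.0205 to 0.224 TPM in hSKP2-KI and 0.0397 to 0.105 TPM in WT. Aurora B (Aurkb), the kinase of the chromosomal passenger complex, ranged from 0.512 to 1.12 TPM and from 0.238 to 0.621 TPM, with overlap.

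Of 9 genes of the kinetochore, the spindle and cytokinesis, only Cenpa was tested, and only Cenpa and, with no filter, Kif23 were called. Cenpa, the histone H3 variant that marks centromeres, was at 1.32, 2.29, 0.957 and 1.93 TPM in hSKP2-KI and at 0.835, 1.01, 0.691 and 0.533 TPM in WT. Of the hSKP2-KI libraries, only hSKP2-KI 3 fell within the WT range. The log2 fold change was 0.55 (standard error 0.18, adjusted p = 0.0362, limma) as deposited and 0.40 (adjusted p = 0.156) after scaling, and with no filter the call as deposited was lost (adjusted p = 0.0678). Kif23, the kinesin of the centralspindlin complex that bundles microtubules at the midzone for cytokinesis, was at 0.794, 0.839, 0.515 and 0.938 TPM in hSKP2-KI. In WT it was at 0.194, 0.418, 0.247 and 0.173 TPM. Every hSKP2-KI library was above every WT library, and all 8 were below 1 TPM, so Kif23 did not pass the filter. With no filter its log2 fold change was 0.49 (adjusted p = 0.0163, limma), and with a pseudocount of 0.1 it was 1.30 (standard error 0.31, adjusted p = 0.0238). The groups also stood apart after scaling, at 0.467 to 0.822 against 0.184 to 0.424, with an adjusted p of 0.0448 when no filter was used. It was the only 1 of the 18 genes below the filter that was called with no filter, and 4 of them had an unadjusted p under 0.05. With no filter, 13.7% of all genes rose as deposited, 13.8% with a pseudocount of 0.1 and 2.05% after scaling, and 21.4% and 6.8% stood apart upward as deposited and after scaling. Prc1, which bundles the same midzone microtubules, was at 0.548 to 0.792 TPM in hSKP2-KI and 0.332 to 0.801 TPM in WT, with overlap, and 11.1% of its exon bases are shared with Rccd1 on the opposite strand. The kinesin Kif20a, also of the midzone, was at 0.342 to 0.97 TPM and 0.462 to 0.67 TPM, with 29.3% of its exon bases shared with Cdc23 on the opposite strand. A higher level was therefore seen in 1 of these 3 midzone genes. Kif11, the motor of spindle bipolarity, Tpx2, an activator of Aurora A, Birc5 (survivin), and the kinetochore proteins Cenpe and Cenpf were each under 1 TPM in every library, with overlap between genotypes.

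Top2a, the topoisomerase that untangles sister chromatids, was at 3.08, 3.29, 3.43 and 1.97 TPM in hSKP2-KI and at 1.97, 3.2, 3.35 and 2.49 TPM in WT. Both genotypes spanned nearly the same values, and the log2 fold change was 0.07 with a 95% interval from -0.30 to 0.44 (adjusted p = 0.741, limma). Foxm1, the transcription factor of G2 and M genes, was at 0.541 to 0.826 TPM in hSKP2-KI and 0.296 to 0.771 TPM in WT. It did not pass the filter, and with no filter its adjusted p was 0.146.

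The S phase set comprised 16 genes, of which 2 of the 14 tested rose as deposited, beside 32.7% of all tested genes. The median log2 change of the 14 was 0.25, beside 0.23 over all tested genes. After scaling 0 of the 14 rose and 1 fell, beside 6.64% and 4.76% of all tested genes. Their median was then 0.04, beside -0.02. The median level of this set was 4.19 TPM, against 0.64 TPM for the mitotic set. Pcna, the sliding clamp of DNA polymerases, was at 50.2, 54.0, 50.2 and 48.4 TPM in hSKP2-KI and at 37.7, 43.2, 35.5 and 26.2 TPM in WT. The groups did not overlap, and WT 4 was the lowest. The log2 fold change was 0.52 (standard error 0.13, 95% interval 0.23 to 0.80, adjusted p = 0.0136, limma). Pcna was the only gene of the list called in each of the 8 fits that left out 1 library, with adjusted p between 0.0075 and 0.0349. After median-ratio scaling it spanned 42.4 to 48.2 in hSKP2-KI and 27.8 to 45.9 in WT, and its log2 fold change was 0.24 (adjusted p = 0.295). The scaling alone thus ended the call and made the groups overlap. Pcna, Tyms and Cdk2 were the 3 tested genes of the list with no overlap between genotypes as deposited, a state that 34.0% of all tested genes shared in the same direction. After scaling none of the 22 stood apart upward, against 9.68% of all tested genes.

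The 6 subunits of the MCM helicase form a ring of 1 copy each that unwinds DNA at the fork. Of these, Mcm3 was called as deposited and Mcm6 after scaling, and both were called on neither scale. Mcm3 was at 3.46, 5.37, 4.21 and 3.55 TPM in hSKP2-KI and at 2.46, 3.47, 2.29 and 1.34 TPM in WT. Only hSKP2-KI 1 lay within the WT range, just below WT 2. Its log2 fold change was 0.62 (standard error 0.19, adjusted p = 0.031, limma) as deposited and 0.41 (adjusted p = 0.193) after scaling, and the call as deposited was lost with no filter (adjusted p = 0.0808). Mcm6 was at 2.43, 3.63, 2.3 and 2.56 TPM in hSKP2-KI and at 3.98, 4.8, 4.65 and 2.82 TPM in WT, where hSKP2-KI 2 was the library above the lowest WT value. The log2 fold change of Mcm6 was -0.44 (standard error 0.16, adjusted p = 0.0583, limma) as deposited, and after scaling it was -0.65 (standard error 0.16, adjusted p = 0.0292). With no filter the scaled value had an adjusted p of 0.0775 (limma), so its call depended on the set of genes fitted and adjusted over.

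Mcm2 was at 7.91 to 11.3 TPM in hSKP2-KI and 9.57 to 10.5 TPM in WT. After scaling its groups did not overlap, at 7.4 to 10.1 in hSKP2-KI against 10.3 to 11.8 in WT, with a log2 change of -0.32 (adjusted p = 0.0681, limma). Mcm7 was at 9.18 to 12.7 TPM and 7.11 to 9.42 TPM, with a log2 change of 0.35 (adjusted p = 0.0503) as deposited and 0.09 (adjusted p = 0.635) after scaling. Mcm4 and Mcm5 had log2 fold changes of 0.29 and 0.22 as deposited and of 0.05 and 0.03 after scaling, with 0 calls.

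Ratios of genes within a library do not depend on its scaling, and they were read for the MCM genes after their values had been seen, without a test. Mcm6 made up 8.15%, 8.34%, 6.44% and 7.86% of the summed TPM of the 6 subunits in hSKP2-KI 1 to 4 and 13.6%, 13.3%, 14.4% and 10.5% in WT 1 to 4. Mcm3 made up 10.9% to 12.3% in hSKP2-KI and 5.0% to 9.59% in WT. Both shares stood apart between the genotypes, in opposite directions. Shares of 1 sum are tied, since a larger share of 1 gene lowers the shares of the others together. How often shares or ratios of other genes stand apart was not read. As single genes, 34.0% of all tested genes stood apart upward as deposited, and 9.68% upward and 9.93% downward after scaling. TPM of Mcm3 over that of Mcm6 was 1.42, 1.48, 1.83 and 1.38 in hSKP2-KI and 0.617, 0.722, 0.493 and 0.476 in WT. Mcm3 exceeded Mcm6 in all 4 hSKP2-KI libraries and in 0 WT libraries. These 2 genes had the highest and the lowest log2 fold change of the 22 tested genes, 0.62 and -0.44 as deposited. A ratio of 2 genes picked in this way was likely to part the genotypes, so it adds no support to either change. The share of Mcm7 was 27.3% to 30.7% and 23.7% to 26.4%, also apart. Those of Mcm2 (at most 28.7% in hSKP2-KI and at least 28.0% in WT), Mcm4 (16.3% to 18.1% against 13.3% to 16.8%) and Mcm5 (5.0% to 8.57% against 4.44% to 8.12%) overlapped.

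**Figure D3:**
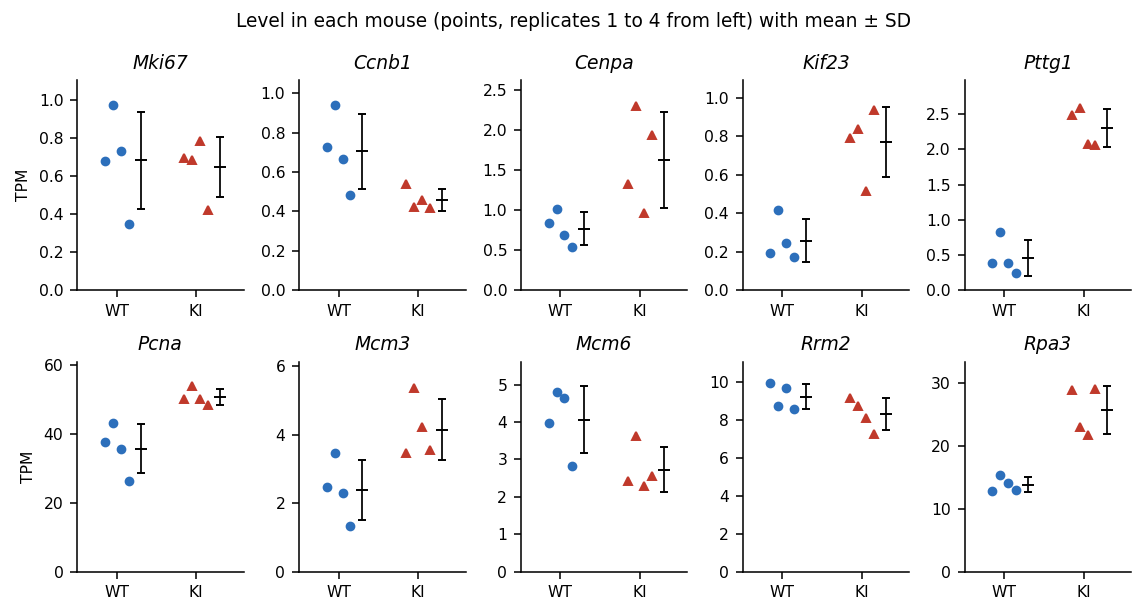
TPM in each mouse for 8 of the 40 genes and for Pttg1 and Rpa3, with a linear axis from 0 for each gene. Circles are the 4 WT mice, triangles the 4 hSKP2-KI mice (KI), and bars the mean ± SD. Kif23, Pcna, Pttg1 and Rpa3 do not overlap between genotypes, Mki67 does over most of its range, and 1 library keeps the Mcm3 groups and 1 the Mcm6 groups from standing apart.

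Of the genes that load the helicase, Cdt1 was at 2.78 to 4.89 TPM in hSKP2-KI and 2.5 to 3.92 TPM in WT (log2 fold change 0.18, adjusted p = 0.399, limma). Its partner Cdc6 was at 0.334 to 0.494 TPM and 0.185 to 0.461 TPM, below the filter. Both loading factors overlapped between genotypes. Gins2, a subunit of the GINS complex of the active helicase, was at 3.87, 5.54, 6.2 and 7.73 TPM in hSKP2-KI and at 4.47, 4.03, 3.39 and 4.15 TPM in WT. Its log2 fold change was 0.42 (adjusted p = 0.0701) as deposited, and 67.3% of its exon bases are shared with Gse1 on the opposite strand, so its reads cannot be told apart from those of Gse1 if strand was not used.

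Cdk2, the kinase that cyclin E activates at the start of S phase, was at 9.93, 9.48, 8.86 and 9.75 TPM in hSKP2-KI and 7.71, 8.58, 7.91 and 8.37 TPM in WT. The groups did not overlap as deposited, yet the log2 fold change was 0.20 (adjusted p = 0.095, limma), and after scaling it was -0.06. Cyclin E2 (Ccne2), with 17.4% of its exon bases shared with Ints8 on the opposite strand, was at 0.198 to 0.519 TPM and 0.226 to 0.701 TPM, below the filter.

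Of the 4 genes of deoxynucleotide synthesis, 0 were called. Rrm1 and Rrm2 encode the large and the small subunit of ribonucleotide reductase, the enzyme that makes deoxynucleotides from ribonucleotides. Rrm1 was at 8.21, 9.14, 8.79 and 7.36 TPM in hSKP2-KI and at 6.51, 7.87, 6.39 and 6.84 TPM in WT. Rrm2 was at 9.16, 8.71, 8.07 and 7.25 TPM in hSKP2-KI and at 9.91, 8.72, 9.66 and 8.55 TPM in WT. Neither subunit was called, with log2 fold changes of 0.25 (adjusted p = 0.0865, limma) for Rrm1 and -0.14 (adjusted p = 0.286) for Rrm2. After scaling, Rrm2 spanned 6.35 to 8.57 in hSKP2-KI and 8.85 to 12.1 in WT without overlap (log2 fold change -0.39, adjusted p = 0.0565). It and Mcm2 were the 2 tested genes of the list that stood apart downward, as 9.93% of all tested genes did. Thymidylate synthase (Tyms) was at 1.9, 1.86, 1.7 and 1.73 TPM in hSKP2-KI and at 1.41, 1.26, 1.29 and 1.37 TPM in WT. Its groups stood apart as deposited, with a log2 change of 0.26 (adjusted p = 0.08), and overlapped after scaling. Thymidine kinase 1 (Tk1), of the salvage route, had a log2 change of 0.28 (adjusted p = 0.105) as deposited and 0.07 after scaling.

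Single libraries carried part of these values. hSKP2-KI 2 was the highest of its genotype for 22 of the 40 genes, WT 2 was the highest of its genotype for 20, and WT 4 was the lowest for 21. Without hSKP2-KI 2, 1 of the 22 tested genes was called higher, and without WT 2 there were 7. The count was also 1 without WT 1, WT 3 or WT 4, so the drop was not particular to hSKP2-KI 2. Among the fits that left out 1 library, the number called higher over all tested genes was also largest without WT 2. The same hSKP2-KI 2 library had the highest sum of 7 macrophage markers, 433 TPM against 212 to 237 TPM in the other hSKP2-KI libraries and 93.5 to 193 TPM in WT. It also had the highest sum of 3 pan-leukocyte markers, 80.1 TPM against 35.1 to 41.7 TPM and 18.2 to 40.1 TPM, and the highest sum of 6 fibroblast markers, 1330 TPM against 759 to 989 TPM and 420 to 605 TPM. In WT this did not hold for macrophages and leukocytes. WT 3 had the highest sums of WT, 193 and 40.1 TPM, against 133 and 25.1 TPM in WT 2. The fibroblast sum was highest in WT 2. Of the 7 macrophage markers, 6 rose as deposited and 0 after scaling, where 32.7% and 6.64% of all tested genes rose. Of the 6 fibroblast markers, 6 rose as deposited and 2 after scaling. No macrophage or fibroblast marker was listed at 0 in any library. Of the 6 smooth muscle markers, 6 rose as deposited and 2 after scaling (5 with quantile normalization), and their sum was also highest in hSKP2-KI 2, at 4620 TPM against 3010 to 4000 TPM and 2030 to 2560 TPM. The basal epithelial sum (424 TPM) and the T cell sum (7.31 TPM) were highest in hSKP2-KI 2 as well. The luminal epithelial and erythrocyte sums were highest in hSKP2-KI 1, at 2240 and 2950 TPM. The endothelial and skeletal muscle sums were highest in hSKP2-KI 4, at 63.2 and 411 TPM, and the B cell sum in WT 3, at 24.1 TPM. Of the endothelial markers 4 of 6 rose as deposited and 1 after scaling, of the erythrocyte markers 3 of 3 and 0, of the basal epithelial markers 2 of 4 and 0, of the luminal epithelial markers 2 of 5 and 0, and of the skeletal muscle markers 1 of 3 and 0. Among leukocytes, 1 of 3 pan-leukocyte markers, 0 of 4 B cell markers and 1 of 2 tested T cell markers, Cd3g, rose as deposited, and 0 after scaling. Cd3g was at 2.35 to 3.14 TPM in hSKP2-KI and 1.01 to 1.87 TPM in WT, and the T cell marker Trac was listed at 0 in all 8 libraries. The part of these cell types in the cell cycle values was not tested. The 40 genes summed to 152, 175, 155 and 149 TPM in hSKP2-KI and to 126, 145, 128 and 110 TPM in WT as deposited. After scaling the sums were 142, 156, 141 and 130 against 154, 147, 143 and 117, and they overlapped.

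A further 138 cell cycle genes were read from the same fit, of which 87 were tested. As deposited 17 of the 87 (19.5%) rose and 1 fell, and after scaling 5 (5.75%) rose and 3 fell, beside 32.7% and 6.64% of all tested genes that rose. Their median log2 fold changes were 0.21 and -0.04, beside 0.23 and -0.02. Of 15 tested genes of mitosis, 3 (20%) rose as deposited and 1 after scaling. That 1 was Pttg1, which encodes securin, the inhibitor of separase that holds sister chromatids together until anaphase. Pttg1 was at 2.48, 2.59, 2.08 and 2.06 TPM in hSKP2-KI and at 0.383, 0.825, 0.39 and 0.244 TPM in WT. Every hSKP2-KI library was above 2 TPM and every WT library below 1 TPM. Its log2 fold change was 1.19 (standard error 0.15, adjusted p = 0.000819, limma) as deposited and 1.05 (adjusted p = 0.00335) after scaling. Pttg1 passed the filter through the hSKP2-KI libraries alone, and with no filter its adjusted p was 0.00433. The others were Smc4, of condensin, and Bub3, of the spindle checkpoint, with log2 fold changes of 0.39 and 0.31 as deposited and adjusted p of 0.346 and 0.868 after scaling.

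Of 38 tested genes of DNA replication, 9 (23.7%) rose as deposited, a share below that of all tested genes. Rpa3, the smallest subunit of the single-strand DNA binding protein RPA, was at 28.8, 22.9, 21.7 and 29.0 TPM in hSKP2-KI and at 12.8, 15.4, 14.0 and 13.0 TPM in WT. It stood apart in all libraries, with a log2 change of 0.84 (standard error 0.11, adjusted p = 0.00123, limma), and it was the gene of this group that also rose after scaling (0.57, adjusted p = 0.0123). Its partner Rpa1 had a log2 change of 0.38 as deposited and 0.10 after scaling. Dut, Pola2, Gins1 and Lig1, which act in the removal of dUTP, priming, the helicase and ligation, had changes of 0.43 to 0.65 as deposited and adjusted p of 0.203 to 0.30 after scaling. Fen1, the flap endonuclease, fell after scaling (log2 fold change -0.39, adjusted p = 0.0236), and its value as deposited was -0.13 (adjusted p = 0.344). It was named after its value was seen.

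Of 12 tested G1 cyclins, kinases and E2F genes, 2 (16.7%) rose as deposited, beside 32.7% of all tested genes. After scaling 1 rose and 1 fell, beside 6.64% and 4.76%. Cyclin D1 (Ccnd1), which opens the G1 programme with Cdk4 or Cdk6, was at 45.3, 77.2, 47.6 and 44.5 TPM in hSKP2-KI and at 29.8, 29.4, 22.2 and 25.5 TPM in WT, and its log2 fold change was 0.67 (adjusted p = 0.038, limma) after scaling. hSKP2-KI 2 was again the highest library, and 23.4% of the Ccnd1 exon bases are shared with LTO1 on the opposite strand. Ccnd3 rose as deposited (0.24, adjusted p = 0.0323) but was at -0.04 after scaling. Myc, named after its value was seen, was at -0.07 as deposited and fell after scaling (-0.34, adjusted p = 0.0376). Of 22 tested inhibitors and repressors, 3 (13.6%) rose and 1 fell as deposited, beside 32.7% and 1.23% of all tested genes. After scaling 2 (9.09%) rose and 1 fell, beside 6.64% and 4.76% of all tested genes, and the median log2 fold change was -0.09. E2f5 and Rbl2 (p130), both parts of the DREAM repressor, rose on each scale, with log2 fold changes of 0.81 and 0.57 as deposited and of 0.56 (adjusted p = 0.0194) and 0.30 (adjusted p = 0.0485) after scaling. E2f4, Lin37, Lin52 and Lin54, also parts of DREAM, were called on neither scale. Of the Rbl2 exon bases, 9.17% are shared with Aktip and 11.8% with Gm45464, both on the opposite strand. With no filter the scaled calls of Rbl2 (adjusted p = 0.0782, limma) and Ccnd1 (adjusted p = 0.0879) were lost. Lin9, a subunit of the core shared by DREAM and the MMB activator, fell as deposited and after scaling. It fell by 0.34 (adjusted p = 0.0481, limma) and 0.54 (adjusted p = 0.00959) on the log2 scale. With no filter the Lin9 call as deposited was lost (adjusted p = 0.0955). Rbl1 (p107) rose as deposited only (0.33, adjusted p = 0.037, and 0.13 after scaling, adjusted p = 0.417).

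The transcripts of the inhibitors p27 and p21 and of the SKP2 cofactor Cks1b were not called. Cdkn1b was at 35.7, 40.8, 36.6 and 39.6 TPM in hSKP2-KI and 26.6, 36.9, 31.2 and 34.1 TPM in WT, with a log2 change of 0.25 (adjusted p = 0.0817, limma) as deposited and -0.03 after scaling. Cdkn1a, which encodes p21, was at 48.2 to 70.0 TPM and 15.5 to 60.5 TPM (0.67, adjusted p = 0.137). Cks1b, the cofactor with which SKP2 binds p27, was at 30.9 to 40.7 TPM and 25.0 to 37.3 TPM (0.21, adjusted p = 0.196). These are levels of RNA, and p27 and p21 are also controlled as proteins.

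**Figure D4:**
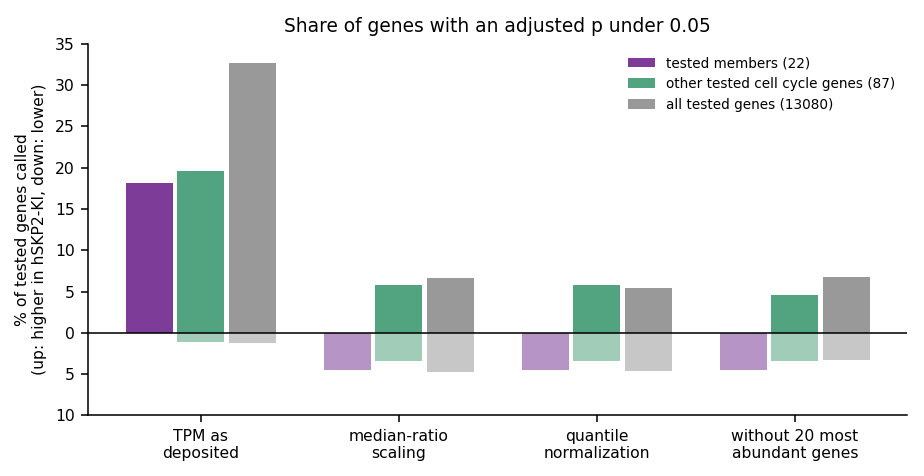
Percent of tested genes with an adjusted p under 0.05 (bars up for higher in hSKP2-KI, paler bars down for lower) among the 22 tested genes of the list, 87 other tested cell cycle genes and all 13080 tested genes, under 4 scalings. As deposited 32.7% of all tested genes rose; after median-ratio scaling 6.64% did, and 0 of the 22 genes did.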

How the data were processed

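The authors deposited 1 table of TPM for the 8 libraries. Per the labels, poly-A RNA was used and the build was mm10 (GRCm38). The paper names CLC software for trimming and mapping, and annotation, counting options and the use of strand are not given in the sources used here. Each library summed to 1000000. The table holds no read counts and 0 columns of other samples. Genes with at least 1 TPM in at least 4 of 8 libraries (13080) were fitted as log2(TPM + 1) with limma 3.58.1 (R 4.3.3, mean-variance trend), with no covariate, and p-values were adjusted by Benjamini-Hochberg over all of them. A log2 fold change on this scale understates the change of low genes. The procedure was tested on simulated data.

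The list and the other gene lists were chosen with earlier results of these data known. The genes named were all 40, genes of the other lists with an adjusted p under 0.05 (at most 6 of each list) and Cdkn1a, Cdkn1b, Ccnd1, Cks1b and Rbl1. Alternatives were: pseudocount 0.1; no filter; mean TPM of 5 or more; scaling by median ratios; quantile normalization; rescaling without the 20 most abundant genes; the replicate number as a block; each library left out. Fits with no filter and a pseudocount of 0.1 or median-ratio scaling were added after seeing the data. Of the luminal epithelial markers, 1 is not reported here. Labels call the libraries biological replicates and give no batch. Each listed gene was found by symbol, and 3 by Entrez identifier under an older symbol. Promoter windows were RefSeq's, 29 of 34 of which matched a GENCODE transcript of their gene. Figures were drawn with matplotlib 3.10.9 (Python 3.11.15).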

Additional observations from a re-analysis of the deposited data

Results flagged for a closer look

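In 5 of the 80 combinations of a gene of the list and a genotype, 1 of the 4 libraries lay far from the other 3, with a gap to the nearest that exceeded Dixon's 95% critical value as a share of the range of the group, and chance alone flags about 1 in 20 such groups. Bub1b was at 2.44 TPM in WT 4 and at 0.39 to 0.607 TPM in the other WT libraries. Aurka was at 2.02 TPM in hSKP2-KI 3, above 1.59 to 1.65 TPM in its group, and at 1.15 TPM in WT 2, below 1.73 to 1.84 TPM. Cenpf was at 0.149 TPM in WT 4, below 0.282 to 0.307 TPM. Prc1 was at 0.792 TPM in hSKP2-KI 4, above 0.548 to 0.581 TPM. None of these 4 genes was called as deposited or after median-ratio scaling, with or without the filter on low values.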

How the results depend on the processing

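Of the limits, TPM without read numbers leaves precision unknown, most strongly for the 18 genes below the filter, and scaling decided most calls. The labels do not say whether equal replicate numbers mark a pairing of mice. The correlations of same-numbered libraries were 0.22, -0.11, 0.17 and -0.01 across genes, and such values cannot exclude a pairing. With the replicate block 5 of the 22 genes were called higher and 1 (Mcm6) lower. The counts called higher over all tested genes were 869 with median-ratio scaling, 709 with quantile normalization, 888 without the 20 most abundant genes and 488 with no filter and median-ratio scaling, where 4272 were called as deposited. The counts called lower were 623, 608, 438 and 404 in the same order, where 161 were called as deposited. Without 1 library the counts were 2839 (without WT 1) to 4548 (without WT 2) higher and 114 to 154 lower. Of the genes of the list, 4 were called higher as deposited, 2 with no filter and 2 with no filter and a pseudocount of 0.1 (in both, Pcna of the 4 and Kif23), 1 (Kif23) with no filter and median-ratio scaling and 0 under median-ratio scaling, quantile normalization or without the 20 most abundant genes. In each of these last 3 settings 1 was called lower. Leaving out 1 library gave 1 (without WT 1, WT 3, WT 4 or hSKP2-KI 2) to 7 (without WT 2) called higher and 0 to 1 called lower, the 1 being Mcm6 without hSKP2-KI 2 or WT 4. The median log2 change of the list was 0.21 as deposited, -0.01 with median-ratio scaling, -0.09 with quantile normalization, 0.02 without the 20 most abundant genes, 0.0 with no filter and median-ratio scaling, and 0.16 to 0.25 without 1 library.

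Of the other cell cycle genes, 17 were higher as deposited, 5 with median-ratio scaling, 5 with quantile normalization, 4 without the 20 most abundant genes, 3 with no filter and median-ratio scaling, 10 with no filter and a pseudocount of 0.1, and 7 (without WT 3) to 20 (without WT 2) without 1 library. The number lower was 1 as deposited, 3 under median-ratio scaling, quantile normalization and without the 20 most abundant genes, 2 with no filter and median-ratio scaling, 0 with a pseudocount of 0.1, no filter, a mean TPM of 5 or both of the first 2, and 0 to 1 without 1 library.

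None of the following genes was called as deposited, and each changed sign in the settings named. With median-ratio scaling, and the same with no filter added, the log2 fold changes were -0.12 for Cdk1, -0.12 for Aurka, -0.01 for Ube2c, -0.13 for Top2a, -0.06 for Cdk2, -0.04 for Cdt1 and -0.01 for Rrm1. With quantile normalization they were -0.26 for Cdk1, -0.24 for Aurka, -0.14 for Ube2c, -0.26 for Top2a, -0.08 for Cdk2, -0.03 for Mcm4, -0.10 for Mcm5, -0.15 for Cdt1, -0.04 for Rrm1, -0.03 for Tyms and -0.06 for Tk1. Without the 20 most abundant genes they were -0.11 for Cdk1, -0.10 for Aurka, -0.11 for Top2a, -0.02 for Cdk2 and -0.01 for Cdt1. With 1 library left out, Cdk1 was at -0.10, -0.02 and -0.04 without hSKP2-KI 2, hSKP2-KI 3 and WT 4 (up to 0.12 without hSKP2-KI 4), Aurka at -0.03 without WT 2, Top2a at -0.04 (up to 0.20 without hSKP2-KI 4) and Plk1 at 0.01 without WT 1, Plk1 at 0.03 and Mcm2 at 0.02 without hSKP2-KI 1, and Cdc20 at 0.05 without hSKP2-KI 4. The cause of these changes was not tested.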
